A study of Homo sapiens with 2 samples.

Results

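The genes described are 10 regulators of the cell cycle, namely the cyclins CCND1, CCND3, CCNE1, CCNE2, CCNA2 and CCNB1, the cyclin-dependent kinases (CDKs) CDK2, CDK4 and CDK6, and the CDK inhibitor CDKN1B. They were taken by gene symbol from the deposited gene table, which held all 10 of them among 27685 genes. RNA was sequenced from NCI-H838, an established human lung adenocarcinoma line, 48 hours after transient transfection with Lipofectamine 2000. One culture received pCDH-LINC00472, a plasmid with the full-length long noncoding RNA LINC00472, and the control culture received the empty pCDH plasmid. Each group held 1 library, so no test between cultures was possible and the intervals given cover counting error only.

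Cyclins are the regulatory subunits that switch CDKs on, and the cell cycle is driven by their rise and fall. D-type cyclins with CDK4 or CDK6 start the phosphorylation of the retinoblastoma protein in G1, and E-type cyclins with CDK2 complete it and open S phase. Cyclin A2 works with CDK2 in S phase and with CDK1 later, and cyclin B1 with CDK1 drives entry into mitosis. CDKN1B (p27) binds cyclin E-CDK2 and cyclin A-CDK2 and holds them inactive. Cyclin D1, CDK4 and CDK6 are frequently altered in lung cancer, and drugs against CDK4 and CDK6 are in clinical use.

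Of the 10 genes, 7 were lower in the LINC00472 library and 0 were higher, and with upper quartile factors 4 were lower. A gene was called lower or higher when its mean level was at least 1 CPM (counts scaled to a common library size), its ratio was at least 2-fold and the 95% counting interval excluded equality. The same rule called 23.8% of 14012 genes at that minimum lower and 16.3% higher. Among protein-coding genes alone the shares were 26.2% and 11.3%. With upper quartile factors 14.2% of all genes were lower. The 10 genes were chosen with earlier results of these data known, so they are not an unselected set to hold against these shares. The median log2 ratio of the 10 genes was -1.34, against -0.19 for all genes and -0.31 for protein-coding genes. The D-type cyclins, CCNE2 and CDK4 had the lowest ratios, and CCNB1, CDK6 and CDKN1B had ratios nearest to equality. All 10 lay below the median of all genes in each of 11 processing settings. A change of scaling factor moves all genes nearly alike, so the settings that differ only in scaling could hardly alter this.

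The library sizes and the scaling bear on every ratio here. The LINC00472 library held 21093055 gene counts and the control 54823706. LINC00472 itself had 5655 counts against 2563, a ratio of 4.69-fold with TMM (trimmed mean of M values) scaling. The median ratio of all genes moved from -0.19 with TMM to 0.105 under total counts and 0.206 under upper quartile factors. With total counts 16.3% of genes were lower and 22.5% higher, and upper quartile factors gave 14.2% lower and 25.1% higher. Epithelial markers of the line were present with a summed level of 68.0 FPKM (fragments per unit of transcript length at a common library size) against 292 in the control. That sum was carried by keratins, with KRT8 highest in the LINC00472 library (26.5 against 94.2 in the control) and KRT18 in the control (157 against 23.9 with LINC00472). KRT18 (log2 -2.90), KRT8 (-1.985) and KRT7 (-1.81) were lower by the rule. A further keratin, KRT19, had 0 counts against 44. Other epithelial markers had log2 ratios of -0.195 for EPCAM and 0.47 for CDH1. NAPSA, a lung marker, was higher, at 2.40 FPKM against 0.742. The lung markers NKX2-1 and SFTPB were at 0 in both. Summed markers were 2.84 against 3.57 FPKM for fibroblasts, led by COL1A1 and LUM, and 0.165 against 0.153 for endothelial cells, led by VWF. Leukocyte markers summed to 17.9 against 17.8 FPKM, led by CD68 (9.98 against 14.2), with CD3E at 0 in both libraries. Within that sum CD14 was higher (7.77 against 2.75 FPKM), and PTPRC and LYZ had 0 counts against 32 and 49. The part of these marker levels in the results was not tested. Fewer cells in a phase of the cycle and less RNA per cell cannot be told apart in these bulk libraries.

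CCNB1 was the most abundant of the 10 messages in both libraries, and in deposited FPKM CCNA2 came after it. CCNB1 stood at 66.9 FPKM with LINC00472 and 87.4 in the control, and CCNA2 at 32.0 and 67.3. The E-type cyclins were the scarcest in both, with 3.56 and 8.10 FPKM for CCNE1 and 4.23 and 14.0 for CCNE2. In scaled counts per kilobase of annotated transcript, CDK2 (38.2 with LINC00472 and 95.1 in the control) stood above CCNA2 (33.1 and 79.1) in both, and CDK6 (37.6) above CCNA2 with LINC00472. The middle of the FPKM order differed between the libraries. In the control CCND1 was in place 3 and CDKN1B in place 8 of the 10 levels. In the LINC00472 library CCND1 was in place 7 and CDKN1B in place 5. Of the 45 pairs among the 10 genes, 37 had the same order of FPKM in both libraries. Neighbours in this order, such as CDK4 (17.5 FPKM), CCND1 (16.9) and CDKN1B (18.5) in the LINC00472 library, cannot be separated without replicate cultures.

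**Figure D1:**
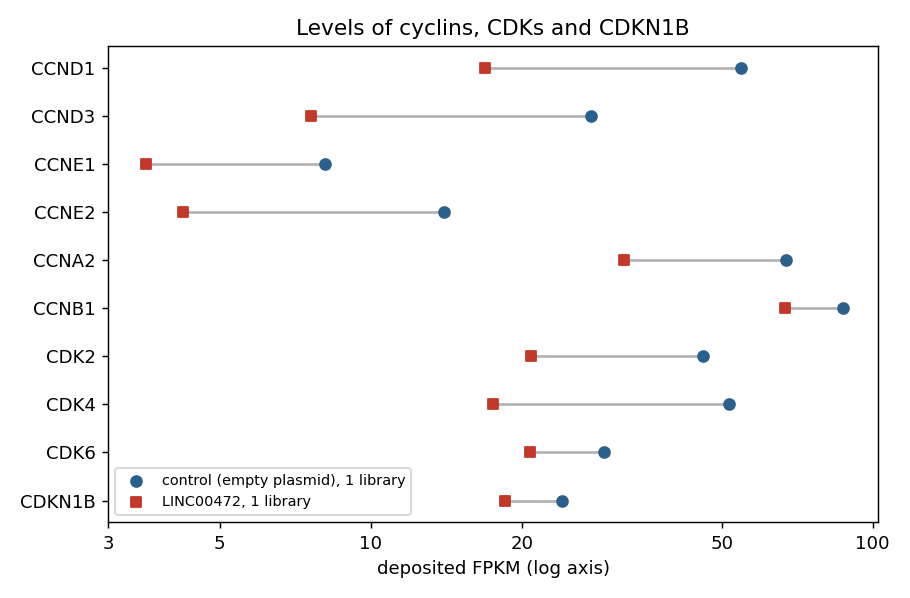
Deposited FPKM of the 10 genes (x axis, log scale) in the control library (blue circles) and the LINC00472 library (red squares), 1 library each, joined by a line for each gene. Every red square lies to the left of its blue circle, with the shortest lines for CCNB1, CDKN1B and CDK6.

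Both D-type cyclins were lower. CCND1 (NCBI gene ID 595), which encodes cyclin D1, the cyclin that links growth signals to the cell cycle, had 1705 counts after LINC00472 transfection against 13357 in the control. Its level was 16.9 FPKM against 54.7, and its TMM-scaled ratio was 3.68-fold lower (log2 -1.88, interval -1.95 to -1.81). CCND3 (gene ID 896), encoding cyclin D3, had 376 counts against 3260, or 7.61 FPKM against 27.5. Its log2 ratio of -2.03 (interval -2.18 to -1.87), or 4.07-fold lower, was the lowest of the 10 genes and stood at percentile 4.53 of 12353 protein-coding genes. CCND1 stood at percentile 6.53.

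The balance among the D-type cyclins was nearly the same in both libraries. CCND1 made up 68.9% of their summed FPKM with LINC00472 and 66.5% without it, and CCND3 made up 31.0% and 33.3%. The remaining D-type cyclin, CCND2, had 3 counts against 64 and lay below the expression minimum. The log2 ratios of CCND1 and CCND3 differed by 0.15, with a counting interval of -0.025 to 0.32 that included equality. Such a difference between genes of the same libraries does not depend on the scaling factor.

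CDK4 was lower, whereas CDK6 did not reach a 2-fold ratio. These kinases share the D-type cyclins as partners. CDK4 (gene ID 1019) had 823 counts against 5896, or 17.5 FPKM against 51.8, a ratio 3.37-fold lower (log2 -1.75, interval -1.86 to -1.65). CDK6 (gene ID 1021) had the most counts of the 10 genes, 5730 against 19412, or 20.8 FPKM against 29.2. Its log2 ratio was -0.67 (interval -0.71 to -0.63), a ratio 1.59-fold below the control.

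The balance of these kinases differed between the libraries, and whether their order turned depended on the unit. In deposited FPKM CDK4 made up 63.9% of the summed CDK4 and CDK6 level in the control and 45.6% in the LINC00472 library. By that measure the level of CDK4 was 1.77 times that of CDK6 in the control and 0.839 times in the LINC00472 library. In scaled counts per kilobase CDK6 was above CDK4 in both, with CDK4 at 0.957 times CDK6 in the control and 0.452 times with LINC00472. Their log2 ratios differed by -1.08 (interval -1.20 to -0.97). With ratios adjusted for the length, base composition and introns of the transcripts this difference was -0.17, and it was 0.057 with the transcript lengths implied by the deposited counts and FPKM. CDK6 has by far the longest transcript of the 10, and with adjusted ratios CDK6 met the rule (log2 -1.25, or -1.49 with implied lengths).

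The sum of the D-type cyclin messages was 24.5 FPKM against 82.4, and that of CDK4 and CDK6 was 38.3 against 80.9. The cyclins thus stood at 0.640 of their kinases with LINC00472 and at 1.02 without it, or at 0.454 and 0.807 in scaled counts per kilobase. These ratios describe messages, and protein was not measured. They were not adjusted for transcript properties. The log2 ratio of CCND1 minus that of CDK6 was -1.21 from counts, -0.59 with adjusted ratios and -0.41 with implied lengths.

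The 250 bases before the start of CDK4 are shown because they hold the E-box word CACGTG, the sequence that MYC and related factors bind, at 3 places. This window (RefSeq, GRCh38.p14, chr12:57752311-57752560, minus strand, written 5′ to 3′ along the gene) has the words searched in capitals.
CDK4: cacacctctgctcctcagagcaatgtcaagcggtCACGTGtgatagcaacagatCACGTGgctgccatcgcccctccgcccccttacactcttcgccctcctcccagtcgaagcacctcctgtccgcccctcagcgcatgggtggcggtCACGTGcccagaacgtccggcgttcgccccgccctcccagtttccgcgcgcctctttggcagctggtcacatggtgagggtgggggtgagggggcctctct
The first bases of the 3 words lie 216, 196 and 101 bases before the start. Of 35116 promoter windows of the same length, 6.34% hold CACGTG at least once and 0.0797% (28 windows) hold it 3 or more times. The words were chosen after the sequences had been seen, on both strands, and none overlapped another. A match is a description of the sequence and not evidence of binding.

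CDK4 and CCND1 each share exon sequence with a gene on the opposite strand, so part of their reads could belong to the neighbour. The strand setting of the counting is not given in the sources used here. The exons of CDK4 share 1078 bases with those of TSPAN31, which had 403 counts against 1046 (log2 -0.29). Those of CCND1 share 497 bases with LTO1, listed under its older symbol ORAOV1, which had 453 counts against 1005 (log2 -0.060). Neither neighbour met the rule. CDK2 shares 89 exon bases with PMEL and 287 with another gene on the opposite strand, CDK6 shares 81 and CCND3 shares 24. One annotated pseudogene is named after CDK4 and 2 after CCND3, and such copies can share reads with them.

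The E-type cyclins were both lower, CCNE2 more than CCNE1. These cyclins activate CDK2 at the border of G1 and S phase. CCNE1 (gene ID 898) had 161 counts against 888, the fewest of the 10 genes, and was 2.59-fold lower (log2 -1.37, interval -1.63 to -1.13). CCNE2 (gene ID 9134) had 272 counts against 2171 and was 3.75-fold lower (log2 -1.91, interval -2.09 to -1.73). Their ratios differed by 0.53 on the log2 scale (interval 0.22 to 0.84), and by 1.09 with adjusted ratios. CCNE2 made up 63.3% of the summed E-type cyclin FPKM in the control and 54.3% in the LINC00472 library. The exons of CCNE2 share 1519 bases with those of INTS8 on the opposite strand. INTS8 had more counts than CCNE2, 3776 against 7199, and a log2 ratio of 0.16. No overlapping gene was annotated for CCNE1, which with upper quartile factors fell short of 2-fold (log2 -0.98).

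CDK2 and CCNA2, the kinase and the cyclin of S phase, had ratios close to each other. CDK2 (gene ID 1017) had 1123 counts against 5944, or 20.9 FPKM against 45.9, and was 2.49-fold lower (log2 -1.31, interval -1.41 to -1.22). CCNA2 (gene ID 890) had 2155 counts against 10981 and was 2.39-fold lower (log2 -1.26, interval -1.33 to -1.19). In FPKM the level of CCNA2 was 1.53 times that of CDK2 with LINC00472 and 1.47 times without it, whereas in scaled counts per kilobase it was 0.864 and 0.832 times. The annotated length of CDK2 is far below the length implied by its counts and FPKM (1260 and 2276 nt). The summed E-type cyclins stood at 0.372 of the CDK2 FPKM against 0.481 in the control, or 0.209 against 0.270 in counts per kilobase. Both genes lost their calls with upper quartile factors, at log2 -0.93 for CDK2 and -0.87 for CCNA2. CCNA2 lost it also with total counts (-0.97), and CDK2 with ratios adjusted for annotated transcript properties (-0.79; -1.08 with implied lengths). CCNA2 shares 253 exon bases with EXOSC9 on the opposite strand (log2 ratio -0.69).

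CCNB1 did not reach a 2-fold ratio. This gene (gene ID 891), the cyclin of mitotic entry, had 3410 counts against 10778 and a log2 ratio of -0.57 (interval -0.63 to -0.51). It stood at percentile 40.5 of protein-coding genes, where CCNA2 stood at 19.0. The ratios of CCNA2 and CCNB1 differed by -0.69 (interval -0.78 to -0.60), and CCNA2 stood at 0.478 of the CCNB1 level with LINC00472 and at 0.770 without it. CDK1, the kinase partner of CCNB1, had 4162 counts against 7897 and a log2 ratio of 0.17 (interval 0.11 to 0.22). CDK1 was thus the more abundant of the pair in the LINC00472 library, with 96.3 FPKM against 66.9 for CCNB1. In the control the order was the opposite, with 73.5 FPKM for CDK1 and 87.4 for CCNB1. CCNB2, another mitotic B-type cyclin, had a log2 ratio of -0.91.

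The windows before CCNA2 and CCNB1 are shown because both genes are periodic late in the cycle but their ratios differed. Capitals mark the E-box CACGTG, the NF-Y box CCAAT, the word TTGAA that forms the core of the cell cycle homology region of CCNA2, and the TATA-like word TTTAAAT, on either strand. The CCNA2 window is chr4:121823884-121824133 on the minus strand and the CCNB1 window is chr5:69166900-69167149 on the plus strand (RefSeq, GRCh38.p14).
CCNA2: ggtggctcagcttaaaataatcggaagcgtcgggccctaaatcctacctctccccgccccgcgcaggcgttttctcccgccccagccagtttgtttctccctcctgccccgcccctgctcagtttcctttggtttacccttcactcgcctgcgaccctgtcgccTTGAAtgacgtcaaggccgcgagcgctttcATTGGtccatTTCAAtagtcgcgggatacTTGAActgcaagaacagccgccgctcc
CCNB1: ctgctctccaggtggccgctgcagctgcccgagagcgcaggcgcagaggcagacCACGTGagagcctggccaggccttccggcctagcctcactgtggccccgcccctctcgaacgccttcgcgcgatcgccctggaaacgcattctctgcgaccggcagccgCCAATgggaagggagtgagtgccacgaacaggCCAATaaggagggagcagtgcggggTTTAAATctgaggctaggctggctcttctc
CCNA2 holds CCAAT 56 bases before the start and TTGAA at 86, 46 and 27 bases. CCNB1 holds CCAAT at 87 and 55 bases, CACGTG at 196 and TTTAAAT at 30 bases, and no TTGAA. Only TTGAA was searched as the core of a cell cycle homology region, so other forms of it in CCNB1 could have been missed. Of all windows, 32.0% hold CCAAT, 30.0% TTGAA and 5.04% TTTAAAT at least once, and 2.05% hold TTGAA 3 or more times. The E2F words TTTGGCGC (0.55% of windows) and TTTCCCGC (1.39%) were in none of the windows of the 7 genes that had an entry. Other forms of the E2F site, and bases outside these windows, were not searched. CCND1, CCNE2 and CDK2 were missing from the promoter table.

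CDKN1B, the brake among the 10, did not meet the rule, and its ratio and that of CCNB1 were the nearest to equality. CDKN1B (gene ID 1027) had 1098 counts against 3466, or 18.5 FPKM against 24.1. Its log2 ratio was -0.57 (interval -0.67 to -0.47), at percentile 40.6 of protein-coding genes. The ratio of CDK2 differed from that of CDKN1B by -0.75 (interval -0.88 to -0.61; -0.35 with adjusted ratios) and that of CCND1 by -1.31 (-1.43 to -1.19). CDKN1B stood at 0.884 of the CDK2 FPKM with LINC00472 and at 0.526 without it, or at 0.464 and 0.277 in scaled counts per kilobase. Relative to the summed FPKM of the D-type, E-type and A2 cyclins it stood at 0.288 against 0.141. The CCND1 level was 2.27 times that of CDKN1B in the control and 0.914 times in the LINC00472 library.

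The CDKN1B window (chr12:12717118-12717367, plus strand, RefSeq, GRCh38.p14) is shown beside that of CCNB1, the gene with the nearest ratio.
CDKN1B: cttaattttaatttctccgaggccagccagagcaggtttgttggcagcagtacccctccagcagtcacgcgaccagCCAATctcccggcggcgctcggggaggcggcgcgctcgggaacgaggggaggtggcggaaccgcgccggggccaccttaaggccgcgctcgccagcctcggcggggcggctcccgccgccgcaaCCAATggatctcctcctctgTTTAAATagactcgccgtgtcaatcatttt
It holds CCAAT at 174 and 50 bases and TTTAAAT at 30 bases before the start, the latter at the same distance as in CCNB1. CCNE1, which was lower, holds TTTAAAT at 28 bases. Whether any of these words bears on the ratios was not tested.

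**Figure D2:**
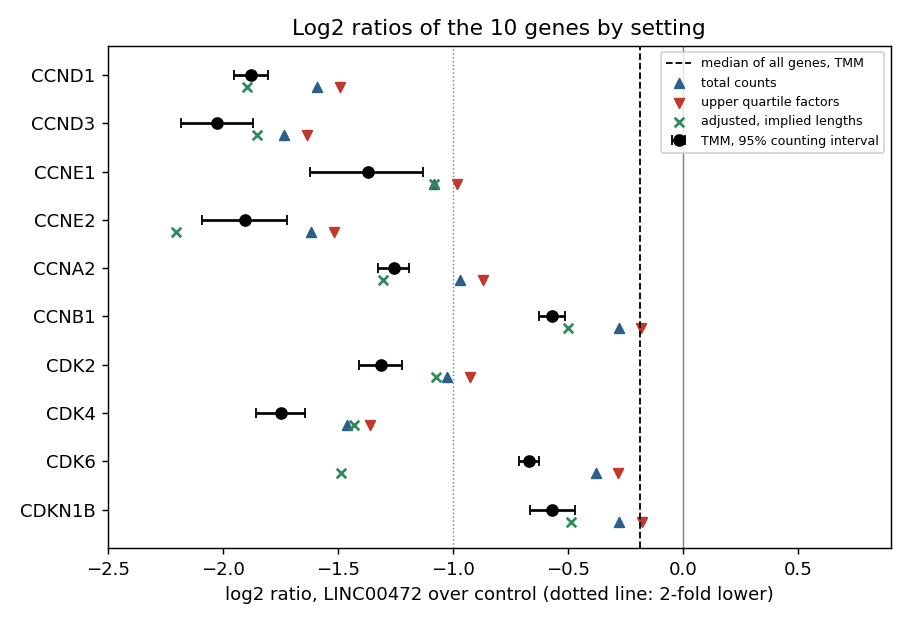
Log2 ratio of LINC00472 over control (x axis) for the 10 genes, with TMM scaling and its 95% counting interval (black), total counts (blue), upper quartile factors (red) and ratios adjusted with implied lengths (green). The dotted line marks a 2-fold lower ratio, the dashed line the median of all genes with TMM (-0.19). CCND1, CCND3, CCNE2 and CDK4 lie beyond the dotted line with each marker, and CDK6 only with the adjusted one.

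**Figure D3:**
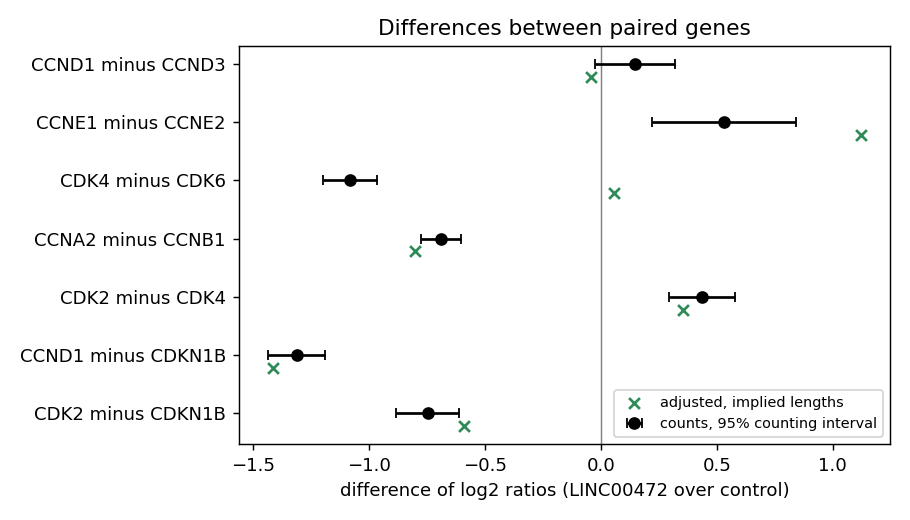
Differences between the log2 ratios of paired genes (x axis) from counts with 95% counting intervals (black, 1 library per group) and from ratios adjusted with implied lengths (green). The interval for CCND1 minus CCND3 crosses 0, and CDK4 minus CDK6 moves from -1.08 to 0.057 with the adjustment.

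Transcript length moved with the ratio over the whole table and is given beside these results. Spearman's correlation of ratio and implied length across protein-coding genes, which are not independent replicates, was 0.41. Genes were split into 10 classes of equal size by implied length. Their median log2 ratio ran from -1.47 in the shortest class (median 980 nt) to 0.35 in the longest (median 8233 nt). Implied lengths of the 10 genes ran from 1926 nt for CCNE1 to 11684 nt for CDK6, and CCND1 came second with 4288 nt. CDK6 (log2 -0.67) was in the longest class, whose median was 0.35 and where 3.81% of genes were lower by the rule. CCND1 (-1.88) was in a class with a median of -0.15. CCNB1 (-0.57) was above the median of its class (-0.65), and CDKN1B (-0.57) was below that of its own (-0.45). CCND3, CCNE1 and CDK4 shared the class of CCNB1, and their ratios lay at -2.03, -1.37 and -1.75. With ratios adjusted with implied lengths 8 of the 10 genes were lower, as against 23.2% of all genes, with 12.7% higher.

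**Figure D4:**
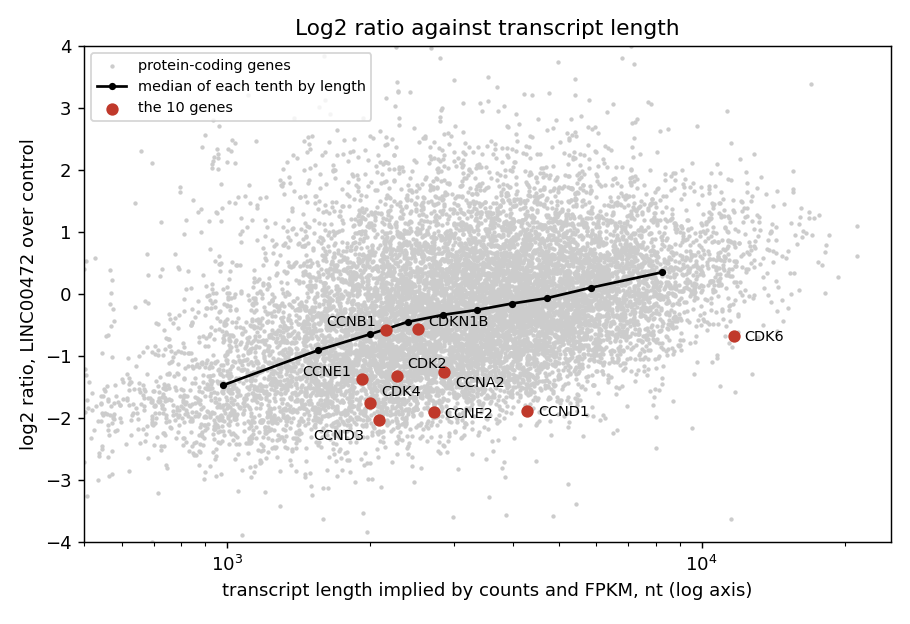
Log2 ratio (y axis) against transcript length implied by the deposited counts and FPKM (x axis, log scale) for protein-coding genes (grey), with the median of each of 10 length classes (black) and the 10 genes (red). Points beyond the axis limits are not drawn. CCNB1 and CDKN1B lie near the black line, and CDK6 and CCND1 lie far below it.

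Other genes of the pathway were mixed. Of 99 such genes, all listed in the table, 93 were at the minimum, 28 were lower and 7 higher, and their median log2 ratio was -0.53. Their share of lower calls, 30.1%, was near that of protein-coding genes (26.2%). Under upper quartile factors the counts were 13 lower and 12 higher.

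No cyclin or CDK that serves transcription was lower by the rule, which called 23.8% of all genes lower and 16.3% higher. Of 7 such cyclins, which had a median of 0.75, 3 met the rule on the higher side and 0 on the lower. They were CCNL1 (log2 1.62), CCNL2 (1.40), both tied to splicing, and CCNK (1.18), the partner of CDK12. Of 11 CDKs and assembly factors of transcription and CDK activation, 1 was higher and 0 were lower (median 0.07), and that gene was CDK10 (1.03). CDK7 fell just short of 2-fold lower (-0.96). With adjusted ratios the median was 0.43 for these cyclins and -0.42 for these CDKs, or 0.33 and -0.29 with implied lengths. Of 5 further cyclins at the minimum, CCNG2, an atypical cyclin linked to arrest, was higher (1.65) and CCNF was lower (-1.13). Of 5 other CDKs, CDK5 (-1.68) and CDK16 (-1.02) were lower. CCNF and CDK16 fell short of 2-fold with total counts (-0.84 and -0.73), upper quartile factors (-0.74 and -0.63) and FPKM (-0.88 and -0.81), and CDK16 with both adjustments (-0.80 and -0.84). CDK5, which is in the shortest length class (median -1.47), fell short of 2-fold with implied lengths (-0.96).

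Of 7 other inhibitors, 5 were at the minimum and 4 of these (80.0%) were lower, with a median of -1.13. Of protein-coding genes 26.2% were lower. CDKN1A (p21), a target of p53 that inhibits the same CDKs as CDKN1B, had a log2 ratio of -1.83 (164 counts against 1242). CDKN2C (-1.22), which binds CDK4 and CDK6, and CDKN1C (-1.13) were lower too. The remaining lower gene, CDKN3 (-1.07), encodes a phosphatase of CDKs. CDKN1B made up 69.7% of the summed FPKM of CDKN1A, CDKN1B and CDKN1C with LINC00472 and 54.9% without it. CDKN2A, the INK4 inhibitor often lost in lung cancer, had 0 counts against 8. With total counts, upper quartile factors, FPKM and both adjustments CDKN1C, CDKN2C and CDKN3 fell short of 2-fold, and 1 of the 5 inhibitors, CDKN1A, was lower.

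CDC25A, the phosphatase that activates CDK2, was lower (log2 -2.07, 531 counts against 4749). PKMYT1, a kinase that restrains CDK1, was lower with a ratio close to the threshold (-1.02). It lost its call with total counts (-0.74), upper quartile factors (-0.64), FPKM (-0.79), a control thinned to equal depth (-0.94) and both adjustments (-0.50 and -0.54). WEE1, with the same action, had a log2 ratio of 0.57. Of 20 genes of the RB, E2F and DREAM group, 5 were lower and 1 higher (median -0.66), a share near that of protein-coding genes (26.2%). The count was 2 with upper quartile factors and 9 with either adjustment. The lower ones included MYBL2 (-1.85), TFDP1 (-1.58) and E2F1 (-1.38), which drives the genes of S phase and fell short of 2-fold with upper quartile factors (-0.99). RB1 (-0.77) and RBL1 (-0.99) did not meet the rule, except with adjusted ratios (-1.49 and -1.47) and, for RBL1, with the control thinned to equal depth (-1.01). RBL2, the pocket protein of resting cells and the gene of this group that was higher, had a log2 ratio of 1.07. With adjusted ratios RBL2 fell short of 2-fold (log2 0.70, or 0.71 with implied lengths) and no gene of the group was higher.

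Of 17 genes of the SCF and cullin ligases, 6 (35.3%) were lower and 1 higher (median -0.70), and with upper quartile factors 3 were lower. Among all genes 23.8% were lower, or 14.2% with upper quartile factors. SKP2 (-1.52) and its cofactor CKS1B (-1.86), which direct the destruction of the CDKN1B protein, were lower, as was the ring subunit RBX1 (-1.88). FBXW7, the receptor that removes cyclin E, was higher (1.68, 4176 counts against 2775). Of 18 genes of the anaphase-promoting complex, which removes cyclins A and B, 8 (44.4%) were lower and 0 higher (median -0.83). With total counts, upper quartile factors, FPKM and both adjustments 5 (27.8%) were lower, and with upper quartile factors 1 was higher. UBE2S (-2.45), ANAPC15 (-1.95) and CDC26 (-1.74) had the lowest ratios. These 3 genes were in the shortest length class, where 67.3% of genes were lower and the median was -1.47, as were CKS1B and RBX1. The activator CDC20 (-1.08) was lower with TMM but not with total counts (-0.79), and FZR1 (-0.93) did not meet the rule.

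**Figure D5:**
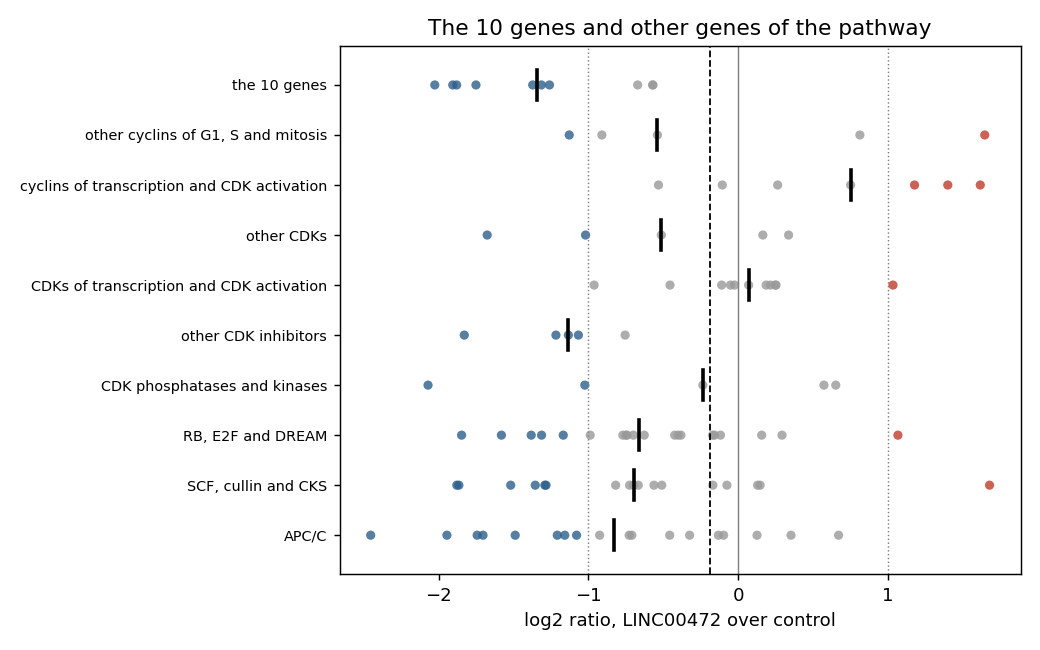
Log2 ratio of LINC00472 over control with TMM (x axis) for the 10 genes and for 9 lists of pathway genes at the expression minimum, 1 point per gene, lower (blue), higher (red) or not meeting the rule (grey). Black bars are medians, dotted lines 2-fold ratios and the dashed line the median of all genes. Of the 7 red points, 3 lie among the transcription cyclins, and the median of the 10 genes is the lowest.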

How the data were processed

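Sequencing used total RNA of NCI-H838 cells, and the sample titles gave the groups. Per the file headers, the authors deposited whole read counts per gene, not normalized, and FPKM values. The submitters' processing notes list HISAT2 2.1.0 and StringTie 1.3.4b, then bcl2fastq 2.20.0 and Trimmomatic, and the build hg19, without roles. The method of counting, with or without strand, is not given in the sources used here. Deposited counts of all 27685 genes were identical in the series table and the single-library tables.

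TMM factors from edgeR 4.0.16 in R 4.3.3 scaled the deposited counts (1.11 for LINC00472, 0.905 for the control). Log2 ratios had a prior count of 0.5, proportional to library size. Intervals are exact conditional (Clopper-Pearson) 95% intervals of a ratio of 2 counts, or of the odds ratio of 4 counts for paired genes. They cover counting error alone, and PCR copies of a molecule are counted as separate reads. A floor of 3 counts applies where a count is 0. The procedure was checked on simulated counts that held counting error only. That check does not bear on variation between cultures. No p-value is given, because each group held 1 library.

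Transcript properties came from GENCODE 29 for 96.7% of genes at the minimum. Implied lengths are control counts divided by FPKM, scaled to GENCODE lengths over 3973 genes with 1 transcript. For adjusted ratios, a spline regression (scikit-learn 1.9.0, degree 3, 5 knots) on length, GC content and intron length was subtracted and the median restored. Alternatives were FPKM with 0.5 added, a prior count of 5, total counts, upper quartile factors, size factors from DESeq2 1.42.0, minimums of 0.1 and 5 CPM, a thinned control and adjusted ratios. Adjustment with implied lengths was added after seeing the data. FPKM ratios have no interval, so the fold alone set their calls.

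The 10 genes and the pathway lists were chosen with earlier results of these data known. Named pathway genes were a set of core regulators and up to 3 genes of each list that met the rule with the largest absolute ratio. Genes named beyond that (RBL2, CDKN3, CDK7, some marker genes and the overlapping genes) were chosen after their values were seen. No gene was named for a similar pattern, since 2 libraries give 1 ratio per gene. The promoter windows of CCNA2, CCNB1 and CDKN1B, however, were chosen with the ratios of these genes in view. Promoters and their coordinates came from RefSeq (GRCh38.p14) and were not converted to hg19. Other software was matplotlib 3.10.9, scipy 1.17.1, pandas 2.3.3 and numpy 2.4.6 in Python 3.11.15.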

Additional observations from a re-analysis of the deposited data

How the results depend on the processing

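CCND1, CCND3, CCNE2 and CDK4 were lower by the size rule in all 10 alternatives, and CCNB1 and CDKN1B in none. The minimums of 0.1 and 5 CPM could not change a call among the 10 genes, whose lowest mean level was 12.4 CPM (CCNE1). Size factors from DESeq2 and a prior count of 5 left their ratios nearly as with TMM. These alternatives are therefore not separate checks. The count of lower genes among the 10 was 7 with TMM and 4 with upper quartile factors. The count of lower pathway genes was 28 with TMM, 17 with total counts, 13 with upper quartile factors and 18 with FPKM, and that of higher ones was 7 with TMM and 12 with upper quartile factors. With ratios adjusted for annotated transcript properties the difference was 1.09 for CCNE1 minus CCNE2, -0.17 for CDK4 minus CDK6, 0.63 for CDK2 minus CDK4 and -0.35 for CDK2 minus CDKN1B. With implied lengths it was -0.043 for CCND1 minus CCND3, 1.12 for CCNE1 minus CCNE2, -0.80 for CCNA2 minus CCNB1 and -0.59 for CDK2 minus CDKN1B. CDK4 minus CDK6 turned to 0.057 with implied lengths. The cause was not tested. The annotated and implied lengths differed most for CDK2 (1260 and 2276 nt) and CDK6 (6538.5 and 11684 nt). The order of levels was shared by 37 of 45 pairs in FPKM and 39 in scaled counts per kilobase. Genes with few counts, such as CCNE1, have the widest intervals. No replicate could be left out. No paired analysis was possible because each group held 1 library.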

Other observations

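The 6 pathway genes below the expression minimum are given as counts, in the LINC00472 library against the control. CCND2, a D-type cyclin, had 3 against 64 counts, and CCNA1, the germ cell A cyclin, had 0 against 6. CDK3 had 28 against 37 counts and CDK18 had 32 against 2, which at the scaled depths is 1.20 against 0.746 CPM for CDK3 and 1.37 against 0.0403 CPM for CDK18. The INK4 inhibitors CDKN2A and CDKN2B had 0 against 8 and 0 against 10 counts, and a count of 0 allows up to 3 counts. CCNB3 lay just above the minimum, with 44 counts against 53 and a log2 ratio of 0.81.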
